A study of Mus musculus with 26 samples.

Results

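The data described here are messenger RNA half-lives from 5 cultures of mouse oligodendroglia, ranked within each culture and compared between oligodendrocyte progenitor cells (OPCs) and the oligodendrocytes (OLs) grown from them. There was 1 list of half-lives for each of 3 OPC and 2 OL replicates. The OPC lists held 8491 transcripts and the OL lists 9698. The 8112 transcripts present in all 5 lists were ranked, 1 canonical coding transcript a gene, out of 10104 with a measured level in either cell type. OPCs carry the same strain background as OLs (129S/SvEv), were derived from epiblast stem cells, and were kept in medium with bFGF and PDGFA. OLs were the same cells, first passaged in that medium without bFGF. They were then kept in medium with T3, noggin, IGF-1, NT3 and cyclic AMP, for 40 h before labelling began. These cultures still hold cells that did not differentiate. Both cell types were labelled for 24 h with 5-ethynyl uridine (5-EU), a uridine analog that can be coupled to biotin, and then chased with plain uridine for 0, 1, 2, 4 or 6 h. RNA that had taken up 5-EU was captured and sequenced, so that the fall of a transcript during the chase gives its half-life. The 5 chase times of a replicate make up 1 half-life list. Per the study's methods the lists are biological replicates, and both OL replicates have a matching OPC replicate, although it is not said which.

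The lifetime of an mRNA sets how fast its level can follow a change in transcription. In most cells the mRNAs of immediate early genes, feedback inhibitors and many transcription factors are short-lived, and those of ribosomal proteins, the respiratory chain and metabolic enzymes are long-lived. Shortening of the poly(A) tail by the CCR4-NOT complex usually starts decay, and decapping or the exosome then removes the transcript. AU-rich elements in the 3′ UTR, with the pentamer AUUUA at their core, recruit proteins of the Zfp36 family that speed the process. Codon content also bears on lifetime in many organisms. An OPC divides and can still choose its fate, whereas an OL has left the cell cycle and makes myelin, the lipid-rich sheath around axons.

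Ranks were used because the half-lives of the 2 cell types stood on different scales. At the median, half-lives were 2.35, 2.08 and 2.83 h for OPC replicates 1 to 3, and 4.54 and 4.44 h in OL replicates 1 and 2. Half-lives above 6 h, the last chase time, were set to 6 h, and 24.5, 25.3 and 31.6% of transcripts lay there in the OPC replicates against 42.3 and 38.8% in the OL replicates. Each half-life was turned into a percentile within its list, from 0 for the fastest decay to 100 for the slowest, so a rank says how a transcript stands among the others of its culture and says nothing of hours. Since the lists differed in how many transcripts sat at 6 h, all ranks above the 57.7th percentile were tied at 78.8 in each list. A rank of 78.8 therefore stands for any half-life in the slowest 42.3% of a list. Of the 8112 transcripts 2024 were tied there in all 5 lists and could not differ, and 6088 were tested. Across transcripts, Spearman's correlation of the ranks was 0.756 to 0.778 between OPC replicates, 0.748 between the OL replicates and 0.587 to 0.696 between cell types. The half-life lists depend on few points. In OPC replicate 2, 2056 transcripts (25.3%) had the same half-life of 1.957 h and were tied at rank 34, and in OPC replicate 3 there were 604 (7.45%) at rank 30.1, against 31 and 94 in the OL replicates. For these 2056 transcripts the values at 1 and 2 h lay above the fitted curve and those at 4 and 6 h below it. In what follows, a transcript's rank of 34 in OPC replicate 2 or 30.1 in OPC replicate 3 stands for this shared value. The level at 6 h was listed at 0 for 14.4, 20.3 and 15.2% of transcripts in OPCs and 1.92 and 0.308% in OLs.

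The labelled cell types were checked against their markers. The summed FPKM (fragments per kilobase of transcript and sequencing depth, scaled by the authors to spiked-in RNA) of the OL markers at 0 h was 37.6 to 55.1 in OPC replicates, where 2 of 10 were listed, and 6192 and 2837 in OL replicates, where 9 were. The summed level of 5 OPC markers was 293 to 406 in OPCs and 586 and 547 in OLs. The higher sum in OLs came with Gpr17, at 5.00 to 6.61 FPKM in OPCs and 323 and 299 FPKM in OLs. Pdgfra was also higher in OLs, at 66.9 and 43.9 FPKM against 11.5 to 26.5 FPKM. Cspg4 was lower, at 30.7 and 29.9 FPKM against 35.7 to 55.7 FPKM, as was Cspg5, at 55.8 and 46.1 FPKM against 98.8 to 116 FPKM, and for Ptprz1 the groups overlapped. None of the 7 microglial and none of the 6 fibroblast or pericyte markers was listed for either cell type, 3 of 8 neuronal markers were listed in OPCs and 4 in OLs, and of the 8 astrocyte markers 5 were listed in OPCs and 7, with Gfap, in OLs. The summed astrocyte markers were at 429 to 512 FPKM in OPCs and at 675 and 829 FPKM in OLs. Of these, S100b was at 9.07 to 10.5 FPKM in OPCs and 290 and 160 FPKM in OLs, and Gja1 was at 40.1 and 188 FPKM in the OL replicates against 35.8 to 42 FPKM in OPCs. The sum of the 4 lineage markers Olig1, Olig2, Sox10 and Nkx2-2 was 1374 to 1436 FPKM in OPCs and 1003 and 824 FPKM in OLs. The part of other cells in the ranks was not tested.

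No transcript passed the test. By limma on the ranks, with Benjamini-Hochberg adjustment over the 6088 transcripts, 0 ranked higher (0.0%) and 0 ranked lower (0.0%) in OLs, and the lowest adjusted p was 0.0715. At an unadjusted p under 0.05 there were 540 transcripts (8.87%) higher and 539 (8.85%) lower in OLs. Both OL replicates lay above all 3 OPC replicates for 938 transcripts (15.4%), and both lay below them for 1072 (17.6%). The median rank difference, OL minus OPC, was -0.588 over all tested transcripts. What follows describes single transcripts and groups of known function by these values, and every count of members is to be read against the shares of 15.4% and 17.6%.

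The widest gap between the groups on the lower side belonged to Mcm6, a subunit of the helicase that unwinds DNA at replication forks. The gene lies at chr1:128331590-128359664 on the minus strand (GRCm38). In hours it was at 4.47, 3.99 and 5.72 among OPC replicates 1 to 3 and at 1.12 and 1.29 in OL replicates 1 and 2. Its rank was 78.8 for every OPC replicate but 4.91 and 1.68 for the OLs, which differ by -75.5 (SE 6.94, adjusted p = 0.0715, limma). At 4 h 53.8, 49.9 and 71.0% of the 0 h level of Mcm6 remained in OPCs, and 8.39 and 3.57% in OLs. The 0 h level of Mcm6 was itself lower in OLs, 10.4 and 5.51 FPKM against 40.4 to 48.6 FPKM. The remaining 9 on this side all ranked at 78.8 in the 3 OPC replicates. They were Uxs1, which makes UDP-xylose, Cip2a, an inhibitor of protein phosphatase 2A, Cxadr, an adhesion protein and virus receptor, Spopl, a ubiquitin ligase adaptor, Top2a, the topoisomerase of dividing cells, Nudcd1, Asph, an aspartate hydroxylase, Prpf39, a splicing factor, and Arhgap5, a GTPase-activating protein. Their differences ran from -70.5 for Cip2a to -54.9 for Asph, each with an adjusted p of 0.0715 (limma). Uxs1 had 2 half-lives of 6.00 h and 1 of 3.08 h in OPCs and values of 1.32 and 1.90 h in OLs. For Spopl the hours were closer than the ranks, 3.40, 2.66 and 3.90 h in OPCs against 2.13 and 2.35 h in OLs.

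On the upper side the widest gap was that of Ccdc59, a coiled-coil protein gene at chr10:105841067-105847833 on the plus strand (GRCm38). Its half-life was 0.513, 0.887 and 1.11 h in OPCs and 6.00 h in both OL replicates. The ranks of Ccdc59 were 1.35, 3.72 and 7.54 among OPCs and 78.8 in both OL replicates, a difference of 74.6 (SE 7.09, adjusted p = 0.0715, limma). Its 0 h level was 9.76 to 11.2 FPKM in OPCs and 10.6 and 7.70 FPKM in OLs, and at 4 h 88.4 and 98.9% of it remained in OLs against 0 to 16.4% in OPCs. Mllt11, a small protein first found as a fusion partner in leukaemia, ranked at 15.4, 12.7 and 4.72 in OPCs and 78.8 in both OL replicates, and its 0 h level was 19.4 to 23.4 FPKM in OPCs and 52.5 and 35.6 FPKM in OLs. The other 8 were Mrps31 of the mitochondrial ribosome, Surf1, an assembly factor of cytochrome c oxidase, Miga2, which acts in mitochondrial fusion, Slc25a33, a pyrimidine nucleotide carrier, Wdr4, a tRNA methyltransferase subunit, Nab2, a corepressor of Egr factors, Kmt2b, a histone methyltransferase, and Gadd45b, a stress-induced growth arrest gene. Their differences lay between 51.1 for Gadd45b and 65.6 for Mrps31, with adjusted p of 0.0715 for all but Slc25a33 (0.0783, limma). Gadd45b kept a finite half-life in OLs, at 5.78 and 5.00 h against 0.819, 0.996 and 0.781 h in OPCs. Ranked by the 6 h level alone, Wdr4 differed by -15.0 in place of 59.4. The tenth place was shared by 40 transcripts with the same gap, and Slc25a33 had the largest rank difference among them.

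The AU-rich nonamer TTATTTATT, written as DNA, stood in the 3′ UTR of transcripts that ranked apart in either direction. The stretches below, on the coding strand of the gene, are shown for the transcripts of widest gap and the immediate early genes that hold the nonamer, which is in capitals. They were read from GRCm38 at chr17:26506159-26506187 (Dusp1, minus strand), chr11:69109686-69109714 (Per1, plus), chr13:110400734-110400762 (Plk2, plus), chr17:84184914-84184942 (Zfp36l2, minus), chr5:32156871-32156899 (Fosl2, plus), chr12:80108167-80108195 (Zfp36l1, minus), chr2:30385078-30385106 (Miga2, plus), chr3:95219990-95220018 (Mllt11, minus), chr10:127660946-127660974 (Nab2, minus), chr16:49018683-49018711 (Cip2a, plus) and chr4:9449862-9449890 (Asph, minus).
Dusp1: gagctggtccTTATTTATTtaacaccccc
Per1: ggggctgcacTTATTTATTtgggagagac
Plk2: aataaactttTTATTTATTacagccccaa
Zfp36l2: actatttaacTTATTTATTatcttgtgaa
Fosl2: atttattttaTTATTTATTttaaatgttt
Zfp36l1: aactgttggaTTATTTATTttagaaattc
Miga2: tgggaagtttTTATTTATTgccttaatac
Mllt11: ctatctatatTTATTTATTtatttattta
Nab2: gtacagtagaTTATTTATTttgttatttt
Cip2a: cattgatgttTTATTTATTctttgggaga
Asph: taactctgttTTATTTATTtcggaatgca
Both OL replicates lay above all OPC replicates for Dusp1, Per1, Plk2, Zfp36l2, Miga2, Mllt11 and Nab2 and below them for Cip2a and Asph, and the groups overlapped for Fosl2 and Zfp36l1. The 3 copies of the nonamer in the 3′ UTR of Mllt11 overlap and all lie in the stretch shown, where only the first is in capitals. The same 3′ UTR holds 8 copies of AUUUA in 1050 bases. Over the 6025 tested transcripts with an annotated 3′ UTR, 554 (9.20%) held the nonamer on the coding strand, against 80 of 935 (8.56%) of those where OLs ranked above and 139 of 1061 (13.1%) of those where OLs ranked below. Over all 8042 ranked transcripts with a 3′ UTR, tied ones included, 625 (7.77%) held it. A match of letters is a description and does not make a site.

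DNA replication had the highest share of lower ranks among the function lists. Of 45 ranked members 41 were tested, and both OL replicates lay below all 3 OPC replicates for 23 (56.1%) and above them for 1. The median rank of the tested members was 54.9, 55.2 and 42.8 for OPCs against 25.7 and 24.9 for OLs, and the median difference was -20.8. At an unadjusted p under 0.05 the count was 16 lower and 0 higher. In hours the medians of the list did not separate, at 2.82, 2.48 and 2.86 h in OPCs and 2.59 and 2.83 h in OLs, while the median of all transcripts was longer in OLs. The list is thus lower in OLs relative to the other transcripts of the same culture.

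All 6 subunits of the MCM2-7 helicase lay below. Mcm2 ranked at 78.8 in the 3 OPC replicates and at 47.7 and 23.0 in OLs, and Mcm4 at 78.8 against 26.0 and 41.7. Mcm5 ranked at 78.8 in the OPC replicates against 45.6 and 23.2. For Mcm7 the ranks were 57.2, 78.8 and 54.2 against 30.9 and 27.7, although its half-lives of 2.86, 2.62 and 3.23 h in OPCs spanned the 2.79 and 2.83 h of OLs. Mcm3 likewise overlapped in hours, at 3.42, 2.37 and 2.51 h in OPCs and 2.59 and 3.08 h in OLs. The differences of the 6 ran from -75.5 to -29.9. The family was singled out after its values were seen.

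The other replication transcripts with large differences act at the fork or in supplying it. Pola1, the catalytic subunit of DNA polymerase alpha, had half-lives of 3.81, 6.00 and 6.00 h in OPCs and 0.791 and 3.26 h in OLs, a rank difference of -60.6 (SE 11.5, adjusted p = 0.0821, limma). The OL replicates of Pola1 ranked at 1.20 and 35.3 and so were far from each other. Pclaf, a partner of the sliding clamp PCNA, was at 6.00 h in every OPC replicate and at 2.46 and 2.98 h in OLs, a difference of -51.1 (SE 7.04, adjusted p = 0.0715, limma). Prim2, Pold3, Rfc2, Gins4, Fen1, Rrm2, Dut, Slbp, Uhrf1 and Cdc6 were also among the 23. Cdc7, the kinase that fires replication origins, was the 1 member on the other side, with ranks of 4.41 to 10.2 in OPCs and 18 and 10.6 in OLs. Its difference of 6.82 became -6.71 with the 4 h level and -11.5 with the 6 h level.

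The mitosis list behaved alike. Of 69 tested members out of 74, OL ranks lay below for 32 (46.4%) and above for 6 (8.70%), with a median difference of -18.2. The median ranks were 47.4, 34 and 37.5 in OPCs and 20.8 and 17.7 in OLs. In hours the medians of the list did not separate, at 2.48, 1.96 and 2.49 h in OPCs and 2.34 and 2.43 h in OLs. Top2a, which untangles sister chromatids, had half-lives of 6.00, 5.16 and 6.00 h in OPCs and 2.14 and 1.86 h in OLs. Aspm, a spindle pole protein, stood at 5.76, 1.96 and 3.71 h in OPCs and 1.04 and 1.35 h in OLs, a rank difference of -61.0 (SE 15.6, adjusted p = 0.119, limma). Cenpf, a kinetochore protein, ranked at 78.8, 48.3 and 78.8 against 16.5 and 10.6. In Aspm, OPC replicate 2 stood at the shared value of 1.957 h and apart from the other OPC replicates. The 6 on the other side were Mis18a, Gtse1, Kif18b, Cdc20, E2f6 and Ncapd3. Mis18a, which loads the centromeric histone, had half-lives of 1.5, 1.96 and 1.96 h in OPCs and 4.98 and 6.00 h in OLs. Without OL replicate 1 the median difference of the mitosis list was -10.5, and without OL replicate 2 it was -20.1.

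**Figure D1:**
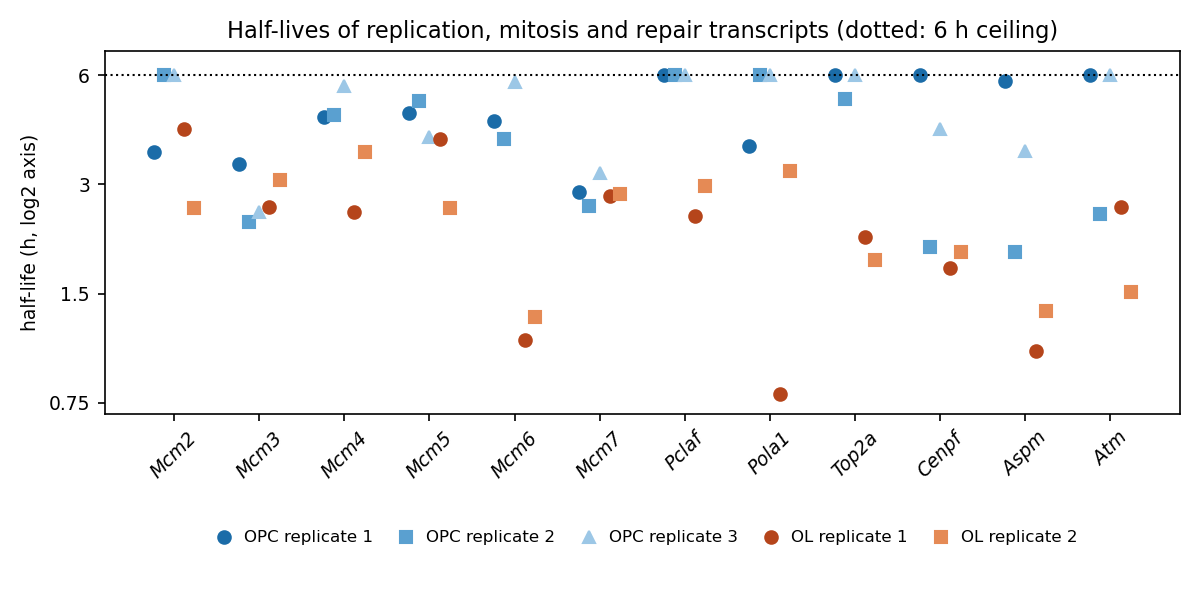
Half-lives in h, on a log2 axis, of 12 transcripts of DNA replication, mitosis and DNA repair, with 1 point a replicate (OPC in blue, OL in orange) and a dotted line at the 6 h ceiling. Mcm6, Pclaf and Top2a separate in hours, and Mcm3 and Mcm7 overlap.

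Of 58 DNA repair transcripts 55 were tested, and OL ranks lay below for 21 (38.2%) and above for 3 (5.45%), with a median difference of -12.8. In hours the median of the list was longer in OLs, at 2.36 and 2.47 h against 1.81, 1.96 and 2.02 h in OPCs. Atm, the kinase that signals double-strand breaks, had half-lives of 6.00, 2.48 and 6.00 h in OPCs and 2.61 and 1.51 h in OLs. Its rank difference was -56.1 (SE 11.7, adjusted p = 0.0896, limma). Rad18, a ubiquitin ligase of damage bypass, ranked at 50.1, 34 and 78.8 in OPCs and 1.60 and 8.30 in OLs. Fancm, a translocase of the Fanconi anaemia pathway, ranked at 78.8, 34 and 78.8 against 15.6 and 15. Msh3, Brca2, Bard1, Parp1 and Xrcc1 were among the 21. Brca1 went the other way without separating, with ranks of 78.8, 34 and 46.9 in OPCs and 78.8 in both OL replicates.

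Levels at 0 h were also mostly lower in OLs for these 3 lists as a whole. Of the 45 replication transcripts 42 were lower at 0 h in OLs, and the median level was 3.37-fold higher in OPCs. Of the 74 mitosis transcripts 71 were lower in OLs, 3.82-fold at the median, and of the 58 repair transcripts 44 were. Among the members whose ranks lay below, 22 of 23, 31 of 32 and 15 of 21 in the 3 lists were also lower at 0 h. These shares are near those of the whole lists, so within a list the level did not set these members apart. Over all tested transcripts a lower level did not go with a lower rank: in the fifth of transcripts with the lowest OL to OPC ratio at 0 h the median rank difference was 0.476, and in the fifth with the highest it was -4.82. What part the level at 0 h has in these ranks was not tested.

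Relative to the other transcripts of a culture, adhesion molecules and integrins also ranked lower in OLs, which says nothing of hours. Their levels at 0 h were mostly higher there. Of 78 members 47 were tested, OL ranks lay below for 21 (44.7%) and above for 0, and the median difference was -19.1. On measures without the tie at the top the median was over all 78 members, so the set differed as well as the measure. It was -8.54 for half-lives refitted without a ceiling, -10.7 with the ranks over 4 chase times and -6.64 with the 6 h level alone. The median tested member was tied at 78.8 in each OPC replicate and ranked at 52.0 and 37.5 in the OL replicates. At an unadjusted p under 0.05 there were 17 lower and 0 higher. The median 0 h level of the list was 1.67-fold higher in OLs, and 3 of the 21 were lower there. Lrrn3, a leucine-rich repeat membrane protein, had half-lives of 5.67, 3.62 and 3.17 h in OPCs and 0.959 and 1.85 h in OLs, a rank difference of -65.1 (SE 10.6, adjusted p = 0.0715, limma). The 0 h level of Lrrn3 was 2.31, 5.67 and 3.99 FPKM in OPCs and 16.2 and 17.5 FPKM in OLs. Cdh22, a cadherin, ranked at 78.8 in OPCs against 16.4 and 38.5, and its 0 h level was 11.1 to 23.4 FPKM in OPCs and 1.43 and 2.72 FPKM in OLs. Pcdhb22 ranked at 78.8 in OPCs against 41.2 and 3.74. It belongs to the beta protocadherins, of which 6 of 12 tested members lay below and 0 above. These near-identical genes may share reads, so their values are uncertain and not independent. Nlgn1, Alcam, Cadm1, Jam3 and Igsf11, which work at contacts between cells, were among the others. Pcdh1, with OPC ranks of 20.8, 15.8 and 30.1 and OL ranks of 78.8 and 22.9, was the member furthest the other way, and its groups overlapped.

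Immediate early genes showed the opposite pattern. These are genes that growth factors, stress or handling switch on within minutes, with the feedback inhibitors that follow. All 31 ranked members were tested, and OL ranks lay above for 19 (61.3%) and below for 5 (16.1%). The median rank was 5.69, 4.31 and 4.60 in OPC replicates and 22.7 and 23.9 in OL replicates, a median difference of 17.3. At an unadjusted p under 0.05 there were 11 higher and 1 lower. At the median the list decayed with a half-life of 0.793, 0.919 and 0.968 h in OPCs and 2.30 and 2.63 h in OLs. In OLs the list was no longer at the bottom of the ranking but still under the median rank of all tested transcripts, 37.5 in both OL replicates.

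Ier5l, an immediate early nuclear protein, had half-lives of 0.494, 0.762 and 1.08 h in OPCs and 6.00 and 4.23 h in OLs, a rank difference of 60.2 (SE 10.9, adjusted p = 0.0783, limma). Dusp1, the phosphatase that switches off MAP kinases, was at 0.509, 0.760 and 0.704 h in OPCs and 6.00 and 3.13 h in OLs, a difference of 54.7 (SE 14.1, adjusted p = 0.122, limma). At 2 h 11.2, 3.08 and 5.89% of the 0 h level of Dusp1 remained in OPCs and 48.0 and 143% in OLs. Its 0 h level was 10.7 to 25.8 FPKM in OPCs and 9.98 and 8.56 FPKM in OLs. Dusp5, another MAP kinase phosphatase, ranked at 41.9, 0.487 and 30.1 in OPCs and 78.8 in both OL replicates.

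Jun, Jund and the Ier transcripts all lay above. Jun was at 0.523, 1.14 and 0.956 h in OPCs and 6.00 and 2.46 h in OLs, with a rank difference of 45.1 (SE 17.2) that the 2 OL replicates, at 78.8 and 20.8, shared unequally. Jund ranked at 23.3, 34 and 38.8 in OPCs and 78.8 in both OL replicates. Ier2 had ranks of 6.72, 0.487 and 6.91 in OPCs and 49.5 and 42.7 in OLs. These were named after their values were seen. Myc, the growth factor-induced transcription factor, had ranks of 0.844, 0.240 and 2.93 in OPCs and 2.95 and 18.4 in OLs. The 5 members on the other side were Homer1, Mycl, Spred2, Btg1 and Sgk1, and Homer1, a synaptic scaffold, had ranks of 54.8, 49.9 and 53.7 in OPCs and 20.4 and 23.9 in OLs. At 0 h 20 of the 31 were at lower levels in OLs. Of the 31 members 6 (19.4%) held the nonamer TTATTTATT in the 3′ UTR. Without OL replicate 2 the median difference was 10.4.

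**Figure D2:**
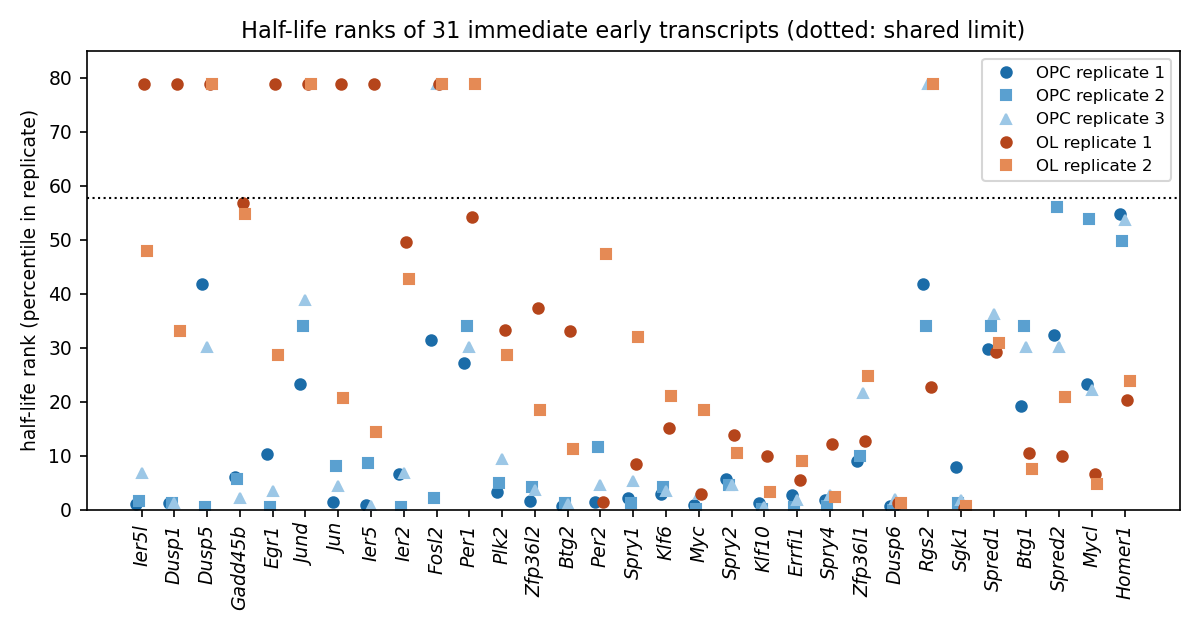
Half-life rank (percentile within the replicate) of the 31 immediate early transcripts, ordered by the difference between OLs (orange) and OPCs (blue), with 1 point a replicate; the dotted line is the 57.7th percentile, above which ranks are tied at 78.8. At the left, OL points lie above OPC points by up to 60.2 on average, and at the right, below.

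The pattern of the immediate early list depended on the chase time. As percentiles of the level relative to 0 h within each library, the median difference between OLs and OPCs was 8.58 at 1 h, 18.2 at 2 h and 11 at 4 h. At 6 h it was -0.616. The median percentiles of the list there were 30.4, 26.6 and 32.4 in OPCs. The 2 OL replicates lay on either side of these, at 51.2 and 16.6. Over all ranked members, the replication list differed by -19.6 at 4 h and -12.8 at 6 h, the mitosis list by -15.9 and -17.0, and the repair list by -7.70 and -2.63. Ranking the mean percentile over 1, 2, 4 and 6 h, which has no ceiling, gave 1277 of 8112 transcripts (15.7%) with OLs above and 1371 (16.9%) with OLs below. On that measure 17 of 31 immediate early transcripts lay above and 5 below. Of all 45 ranked replication transcripts 18 lay below and 2 above. Of all 78 ranked adhesion transcripts 29 lay below and 5 above, while the earlier counts were over tested members only.

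**Figure D3:**
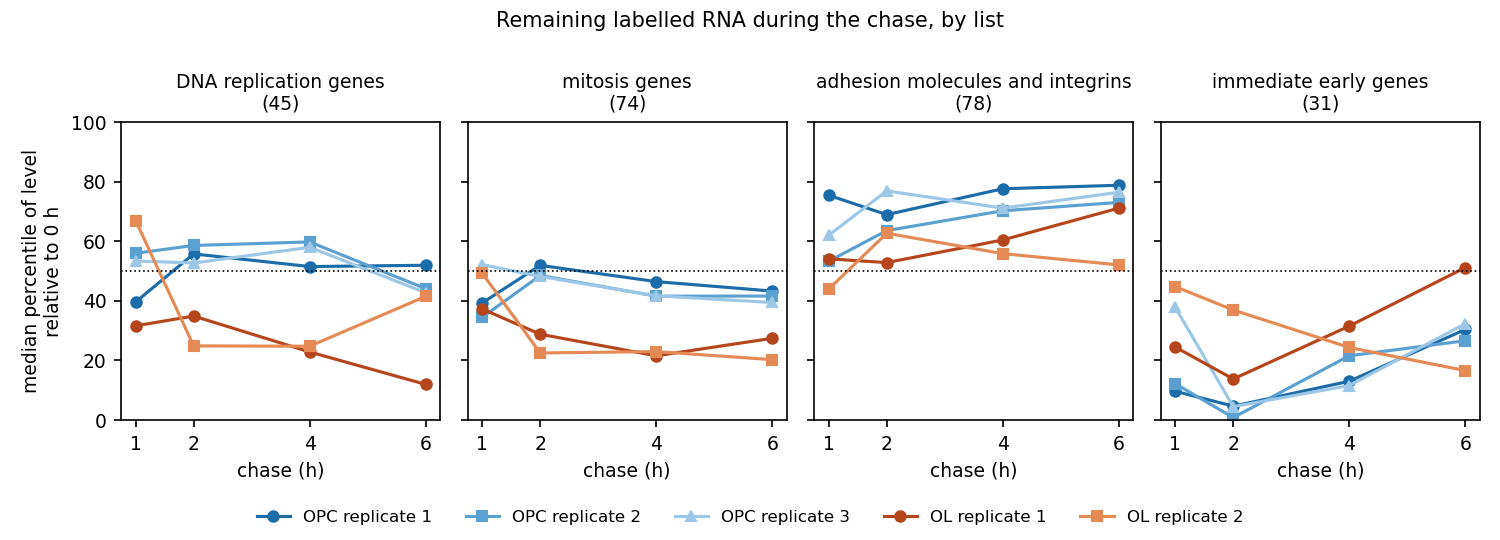
Median percentile of the remaining level, relative to 0 h within each library, of all ranked members of 4 lists at 1, 2, 4 and 6 h of chase, with 1 line a replicate (OPC in blue, OL in orange) and a dotted line at 50. From 2 h on the mitosis lines of both OL replicates lie below those of OPCs, and the immediate early lines lie above at 2 and 4 h.

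Transcription factors of the lineage were mixed with a tail to lower ranks. Of 26 tested, OL ranks lay below for 11 (42.3%) and above for 3 (11.5%), while the median difference was -2.59. That median was -7.17 without OPC replicate 1, -0.405 without OPC replicate 2, -6.65 without OL replicate 1, -5.37 without OL replicate 2 and -16.7 with the 6 h level alone. Tcf12 and Tcf4, the E proteins that pair with Olig factors, differed by -39.6 (SE 10.8, adjusted p = 0.131, limma) and -39.3 (SE 11.3, adjusted p = 0.145, limma). Tcf12 ranked at 78.8, 54.0 and 78.8 in OPCs and at 25.1 and 36.9 in OLs. Sox4, a factor of immature neural cells, had ranks of 21.4, 51.8 and 45.2 in OPCs and 3.01 and 5.62 in OLs. Its 0 h level was 90.03, 143 and 114 FPKM in OPCs and 164 and 151 FPKM in OLs. Sox11, Sox5, Sox6, Sox2, Nfia, Nfib, Zeb2 and Nkx2-2 were the others below. Hey1, Id3 and Hes5, inhibitors of differentiation downstream of Notch and BMP signals, lay above. Hey1 had ranks of 7.17, 15.4 and 7.30 in OPCs and 55.3 and 42.1 in OLs, a difference of 38.8 (SE 8.16, adjusted p = 0.0896, limma). With the 6 h level alone Hey1 differed by -3.59.

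The lineage and OPC markers with half-lives in all 5 lists had differences within their standard error or just above it, or were tied. Olig2 ranked at 3.6, 4.47 and 7.09 in OPCs and 5.42 and 5.10 in OLs, a difference of 0.206 (SE 6.96). Sox10 ranked at 2.57 to 17.9 and at 8.59 and 6.19. Gpr17, a receptor of committed precursors, differed by -0.0781 (SE 7.55), with 0 h levels of 5.00 to 6.61 FPKM in OPCs and 323 and 299 FPKM in OLs, but by -55.0 with the 6 h level alone (adjusted p = 0.0612, limma), -21.2 with the 4 h level and -18.3 with the ranks over 4 chase times. Pdgfra, the PDGF receptor of OPCs, differed by -2.59 (SE 7.99), Cspg4 by 5.52 (SE 13.5), Olig1 by 2.02 (SE 13.1) and Nkx2-2 by -7.78 (SE 7.39). The standard errors, of 6.96 to 13.5 ranks, limit what could be seen. Cnp, Ptprz1, Cspg5, Slc1a2, Slc1a3, Aldoc, Gja1 and S100b were tied at 78.8 in all 5 lists. Mbp, at 3213 and 1295 FPKM in OLs and 1.19 to 3.99 FPKM in OPCs, was tied at 78.8 in all but OPC replicate 3. Of the 2 neuronal markers ranked, Map2 had OPC ranks of 78.8 and OL ranks of 28.4 and 44.3, and Tubb3 was at 78.8 in all but OPC replicate 3, where it was at 39.2.

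Of 22 myelin transcripts 11 were tested, with 2 above and 2 below. Bin1, a membrane-bending protein, had half-lives of 1.95, 1.96 and 1.43 h in OPCs and 6.00 and 4.53 h in OLs. Ppp1r16b, a phosphatase subunit, ranked at 21.1, 34 and 30.1 against 54.1 and 43.9 but differed by -0.234 with the 6 h level alone, and Mpzl1 was furthest the other way, with a difference of -25.3. The median difference of the list was 8.76. It was -4.96 without OL replicate 1, 16.6 without OL replicate 2, 5.27 without OPC replicate 1 and 3.99 without OPC replicate 3. Of 18 progenitor transcripts 8 were tested, 1 lay below and 0 above. That 1 was Vcan, a matrix proteoglycan, with ranks of 78.8 in OPCs and 50.8 and 40.4 in OLs. The median of the progenitor list was -4.60, and it came to 1.79 without OPC replicate 2, -13.7 without OL replicate 1 and 0.57 without OL replicate 2. Cacng4 was furthest the other way, at 8.11.

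Splicing factors and zinc finger proteins also had more members below than above. Of 83 tested splicing factors 23 (27.7%) lay below and 5 above, with a median difference of -11.5. The median was 0.0, the difference of tied members, without OL replicate 1, and -17.1 without OL replicate 2. Prpf39 had ranks of 78.8 in OPCs and 9.57 and 26.5 in OLs, Ptbp3 of 78.8, 55.7 and 78.8 against 30.1 and 26.1, and Snrpb2, a U2 particle protein, of 78.8 against 36.5 and 37.6. The SR proteins Srsf1, Srsf3, Srsf6 and Srsf10 were among the 23, and Srsf6 differed by -36.6. Dhx16, a spliceosomal helicase, lay above, at 47.2, 34 and 30.1 against 78.8. Of 148 Zfp genes, which encode zinc finger proteins, many of them DNA-binding, 41 (27.7%) lay below and 17 (11.5%) above. The median half-life of this list was short in both, at 1.29 to 1.86 h in OPCs and 1.48 and 2.08 h in OLs, with a median difference of -5.57. The median was -2.70 without OPC replicate 3, -3.65 without OPC replicate 1 and -3.70 without OL replicate 1, while it was -8.06 with the ranks over 4 chase times and -16.8 with the 6 h level alone. Zfp970, Zfp326 and Zfp644 differed by -50.0 (SE 17.8), -48.4 (SE 11.2) and -45.4 (SE 12.3), and Zfp703, a corepressor, by 54.0 (SE 11.9) the other way. Zfp326 ranked at 52.2, 78.8 and 50.7 in OPCs and 7.64 and 16.8 in OLs.

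The decay machinery was itself listed. Of 56 tested mRNA decay factors 14 lay below and 4 (7.14%) above, and the median difference was -2.54. It was -4.39 without OPC replicate 1 and -4.01 without OL replicate 2, and 0.65 when ranked among all listed transcripts. Cnot6l, a deadenylase of the CCR4-NOT complex, ranked at 78.8, 48.6 and 48.0 in OPCs and 18.4 and 9.46 in OLs, and Cnot2, a scaffold of the same complex, at 45.5, 54.5 and 34.3 against 3.14 and 12.7. Exosc8 of the exosome had ranks of 78.8, 50.6 and 49.1 against 40.0 and 1.27, a difference of -38.9 that was 12.1 with the 6 h level alone. Dcp2 and Dcp1a of the decapping complex, Ddx6, Ago1 and Ago3 were also below. Upf1, the helicase of nonsense-mediated decay, lay above, at 3.96, 34 and 30.1 against 78.8 and 38.2.

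**Figure D4:**
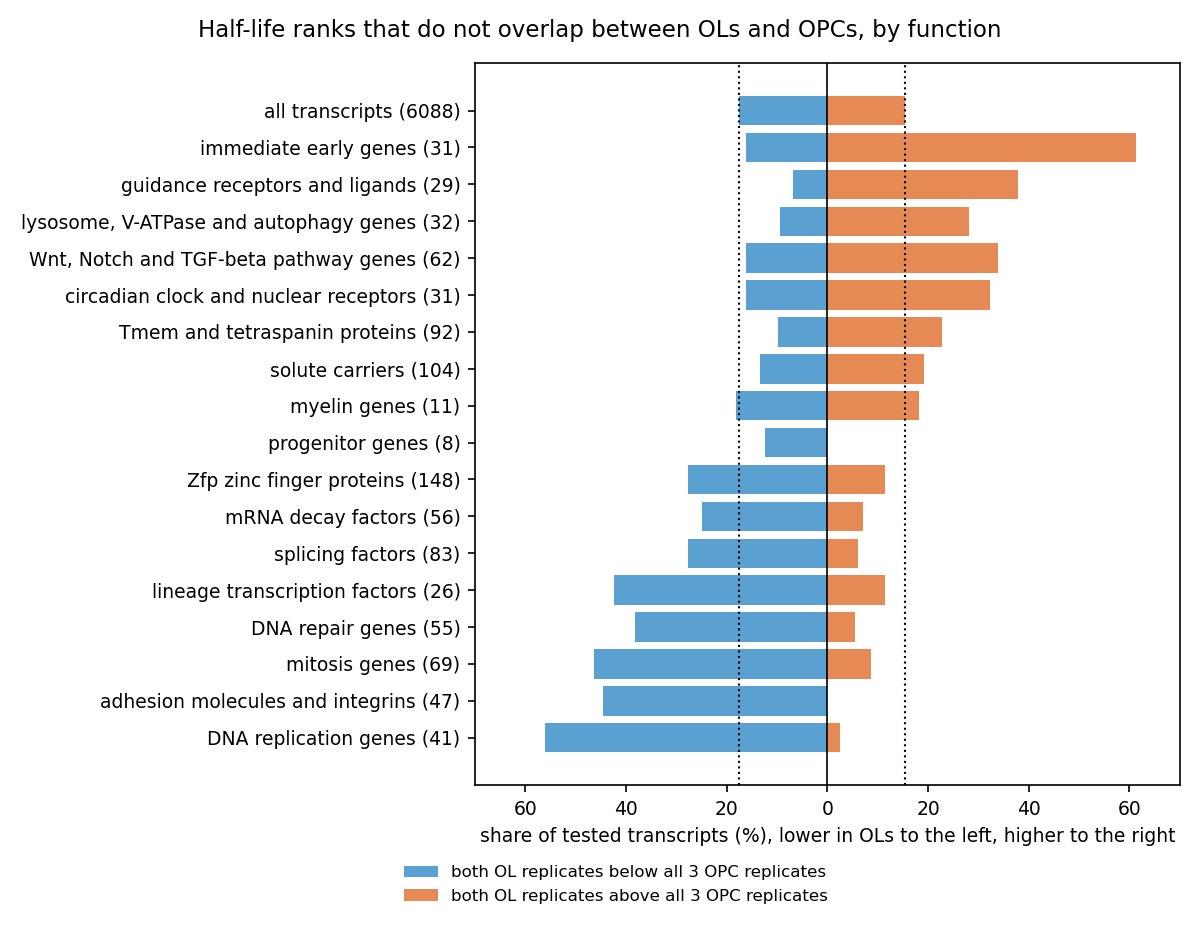
Share (%) of the tested transcripts of each of 17 function lists, with the number tested in brackets, for which both OL replicates ranked above all 3 OPC replicates (orange, right) or below all 3 (blue, left). Dotted lines mark the shares over all 6088 tested transcripts, 15.4% above and 17.6% below; replication transcripts reach 56.1% below and immediate early genes 61.3% above.

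Several signalling lists had more members above than below. In the Wnt, Notch and TGF-beta pathways 21 of 62 tested transcripts (33.9%) lay above and 10 (16.1%) below, with a median difference of 6.54. The median was 1.85 without OL replicate 1, 3.22 without OPC replicate 1, 10.02 without OL replicate 2 and -3.80 with the 6 h level alone. Bcl9l, a coactivator of beta-catenin, ranked at 10.1, 34 and 30.1 in OPCs and 78.8 in both OL replicates. Ski, an inhibitor of Smad proteins, ranked at 33.9, 34 and 30.1 against 78.8, a difference of 46.1 (SE 6.99, adjusted p = 0.0715, limma). For both Bcl9l and Ski, OPC replicates 2 and 3 were at the shared half-life of 1.957 h. The receptors Notch1 and Notch2 lay above, with half-lives of 1.13 to 2.09 h and 1.54 to 1.96 h in OPCs and of 5.13 and 4.49 h and 6.00 and 4.01 h in OLs. Tgfb2, a ligand, was furthest the other way, at 57.3, 78.8 and 78.8 against 31.5 and 30.2, and the signal transducers Bmpr2, Acvr2a, Tgfbr1, Smad4, Smad5 and Rbpj were below with it.

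Of 29 tested guidance receptors and ligands 11 (37.9%) lay above and 2 (6.90%) below, with a median difference of 9.81. Sema4b, a membrane-bound semaphorin, had half-lives of 0.616, 0.786 and 0.864 h in OPCs and 6.00 and 3.90 h in OLs, a rank difference of 59.0 (SE 11.5, adjusted p = 0.0823, limma). Its 0 h level was 31 to 44.5 FPKM in OPCs and 2.90 and 13 FPKM in OLs. Efna3, an ephrin, ranked at 41.9, 34 and 16.5 against 78.8, and Lingo1, a known brake on myelination, at 24.9, 34 and 14.6 against 78.8 and 53.3. Sema3a, a secreted repellent, lay below, at 78.8 against 32.3 and 50.0. Without OPC replicate 1 the median difference of the list was 2.21.

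Of 79 lysosome, V-ATPase and autophagy transcripts 47 were tied at 78.8 in all lists and 32 were tested, of which 9 (28.1%) lay above and 3 (9.38%) below, with a median difference of 9.69. The median was 5.79 without OL replicate 1. Over all 79 members, tied ones included, it was 1.22 for half-lives refitted without a ceiling and 0.38 with the 6 h level alone. The 9 were Atg101, Atg12, Atg13, Atg2b, Atg4b, Atg5, Ulk1, Epg5 and Gabarapl1, whose product coats the autophagosome, and were named after their values were seen. Gabarapl1 ranked at 45.4, 34 and 44.6 in OPCs and 78.8 in OLs, and its 0 h level was 39.2 to 48.8 FPKM and 94.7 and 96.8 FPKM. Atg12 differed by 35.8 (SE 12) and Atg13 by 30.6 (SE 12.8). Glb1, a lysosomal galactosidase, lay below, at 78.8 against 45.8 and 35.8. Of 92 Tmem and tetraspanin transcripts 21 (22.8%) lay above and 9 (9.78%) below, led by Tmem129, Tmem201 and Tmem43 with differences of 53.2, 42.5 and 41.3, and Tspan11 differed by -45.7. The median of that list was 7.87, and 4.94 without OPC replicate 1. Over all members it was 0.716 with plain mid-ranks, which tie only the half-lives of 6 h within each list. Of 104 solute carriers 20 (19.2%) lay above and 14 (13.5%) below, near the shares of all transcripts, with a median of 6.72 that was 2.06 without OPC replicate 1 and 4.39 without OPC replicate 3. Over all members, tied ones included, it was 0.991 with plain mid-ranks and 1.76 with the 6 h level alone. Slc3a2, the heavy chain of amino acid transporters, had half-lives of 1.34, 1.96 and 1.96 h in OPCs and 6.00 and 5.77 h in OLs, and Slc25a38 differed by 60.0 (SE 9.92, adjusted p = 0.0715, limma). Slc39a10, a zinc importer, differed by -46.7. Of 31 clock genes and nuclear receptors 10 (32.3%) lay above and 5 (16.1%) below, with a median of 2.28. Without OPC replicates 1, 2 and 3 in turn that median was 5.94, 4.45 and 4.09, without OL replicate 2 it was 7.52, and with the 6 h level alone it was -0.663. Nr1h2, Ppard and Cry1 differed by 45.8 (SE 14.2), 44.5 (SE 12.6) and 43.5 (SE 7.61), and Ncoa2 by -19.7 (SE 10.1), which was 0.30 with the 4 h level alone.

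At the slow end the half-life ranks allowed no comparison. All 80 cytosolic ribosomal protein transcripts and all 75 transcripts of oxidative phosphorylation subunits were tied at 78.8 in the 5 lists. On the ranks over 4 chase times the ribosomal list had a median difference of -0.505, with 5 above and 0 below, and the oxidative phosphorylation list one of 3.08, with 7 above and 1 below. Another 30 lists, from chromatin regulators to Rab GTPases, had median differences between -11.0 and 7.26, and 20 of the 30 medians were within 5 ranks of 0. Among these 30 the peroxisome list had the highest share above, 6 of 15 tested (40.0%), with 2 (13.3%) below. The nuclear pore and translation factor lists had medians of -10.5 and -9.89. These were further from 0 than the medians of the described clock, decay, lineage and Zfp lists.

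Base composition moved with the rank differences. Across 6081 tested transcripts the difference correlated with the G+C content of the last base of codons (GC3), Spearman's coefficient 0.396, and 0.370 on the ranks over the 4 chase times. In the fifth of transcripts with the lowest GC3, 23.0 to 48.6%, OLs lay below for 470 transcripts (34.3%) and above for 46 (3.36%). In the fifth with the highest GC3, 69.9 to 96.4%, they lay below for 81 (7.06%) and above for 282 (24.6%). The median difference of the 5 classes from low to high GC3 was -12.6, -4.78, 3.55, 7.60 and 7.59. The 2 OL replicates did not share this equally: the coefficient of GC3 with the rank was 0.290 in OL replicate 1 and 0.108 in OL replicate 2, against -0.0687, 0.0566 and -0.0602 in the OPC replicates. With the difference of each OL replicate from the OPC mean, the coefficient was 0.479 for replicate 1 and 0.220 for replicate 2. The libraries also differed in this property within a cell type. The ratio of 0 h levels between OPC replicates 1 and 2 correlated with GC3 at 0.493, and that between the OL replicates at -0.0758. Whether library preparation has a part in the GC3 pattern was not tested.

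**Figure D5:**
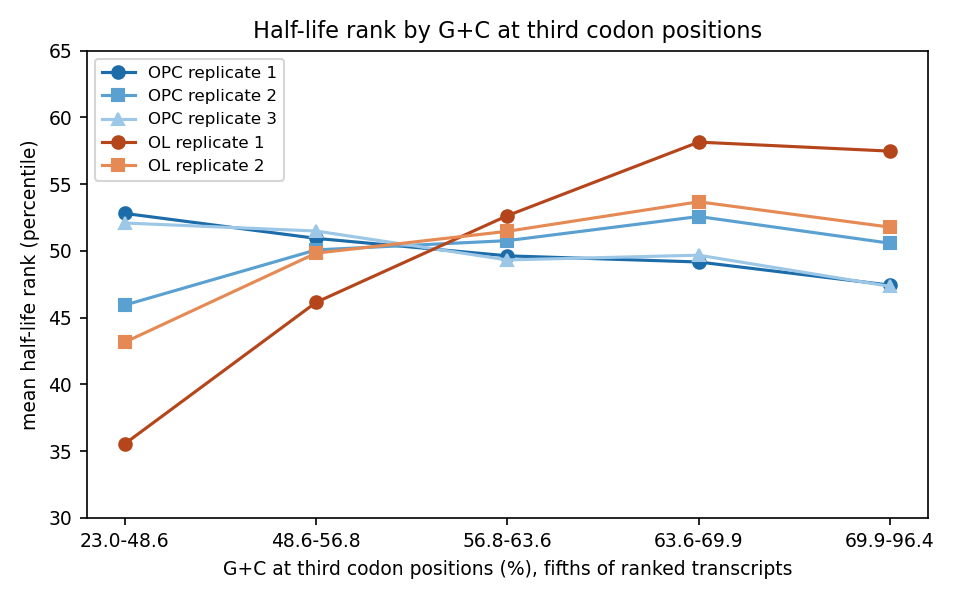
Mean half-life rank (percentile) of ranked transcripts in 5 classes of equal size by GC3 (%), with 1 line a replicate (OPC in blue, OL in orange). The mean of OL replicate 1 goes from 35.6 to 57.5 across the classes, that of OL replicate 2 from 43.2 to 51.8 and that of OPC replicate 2 from 45.9 to 50.6, while OPC replicates 1 and 3 go from 52.8 to 47.4 and from 52.1 to 47.3.

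The function lists differ in GC3, so each was also taken with ranks centred within 20 classes of GC3, an alternative chosen after seeing the data. Over the 6081 tested transcripts with a GC3 value, OLs then lay above for 1021 (16.8%) and below for 1118 (18.4%). The replication list then had a median difference of -20.5 with 21 below and 2 above, the mitosis list -12.4 with 29 and 10, the repair list -10.4 with 17 and 5, and the adhesion list -18.8 with 25 and 1. The immediate early list had 13.3, with 18 above and 6 below. Lineage transcription factors had -12.5, with 14 below and 2 above. Splicing factors came to -6.26, with 16 below and 10 above, and Zfp genes to -2.45, with 26 and 25. For the Wnt, Notch and TGF-beta list the median was 1.67, with 15 above and 6 below, and for guidance genes 3.66, with 11 and 4. The progenitor list had -12.4, with 4 below and 0 above. Lysosome and autophagy genes had 11.3, with 8 on either side, and solute carriers 2.76, with 14 above and 24 below. The medians of the other 4 lists were -3.05 for decay factors, 3.07 for Tmem and tetraspanin genes, 3.58 for myelin genes and 1.25 for clock genes and nuclear receptors.

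The 3′ UTRs differed as well. Where OLs ranked below, the median 3′ UTR was 2215 bases and 928 of 1061 (87.5%) held AUUUA. Where OLs ranked above, the median was 1105 bases and 648 of 935 (69.3%) held it, against a median of 1356 bases and 75.6% over the 6025 tested transcripts. Across transcripts the coefficient of the rank difference was -0.216 with the length of the 3′ UTR and -0.188 with AUUUA per kilobase. Transcripts with 2 or more nonamers had a median difference of -3.77, those with 1 of -2.68 and those without of -0.290, so that the immediate early transcripts with the nonamer, such as Dusp1 and Per1, went against the trend of the class. The separate parts of GC3 and of the 3′ UTR were not tested.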

How the data were processed

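Decay-seq libraries from 15 OPC and 10 OL samples (5 chase times for each of 3 OPC and 2 OL replicates) were used, and the control library without biotin was not used here. Per the study's methods, the authors clipped single reads, aligned them with HISAT2 2.1.0 to GRCm38, estimated FPKM of canonical coding transcripts (GENCODE) with StringTie 1.3.5 and scaled FPKM to spike-in reads. They left out transcripts below 1 FPKM at 0 h, or at 0 after 1 or 2 h, and fitted an exponential by least absolute deviation to give the deposited half-lives in h, capped at 6 h. The processed files hold no counts and raw reads were not used here, so neither the depth per sample nor a counting interval was given.

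Half-lives were rounded to 0.001 h, chosen after seeing that equal solver values differed in later decimals, and ranked as percentiles within each list. Ranks above the 57.7th percentile were tied. Differences were tested with limma 3.58.1 (R 4.3.3). The test was also tried on simulated ranks, and no result given here rests on that trial. Transcript features came from the GENCODE annotation of GRCm38, which matched all 8112 transcripts by identifier. Members and the 49 function lists were chosen with earlier results of these data known. Named transcripts are the 10 with the widest gap between groups on each side at a mean 0 h level of at least 5 FPKM, since none passed the adjusted p. In each described list they are the 3 with the largest difference in the direction of the median and the 1 furthest the other way, and the markers, of which 1 is not reported here. Others were named after their values were seen. Lists were described by counts and medians, with no set test. Alternatives changed the ties, the measure, the chase time, the filter, the scale, the moderation, the set ranked and the replicates.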

Additional observations from a re-analysis of the deposited data

How the results depend on the processing

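The count of transcripts past an adjusted p of 0.05 (limma) was 0 in each direction with the ranks over 4 chase times, refitted half-lives, 6 h levels, a minimum 0 h level, normal scores, robust moderation, ranks among all listed transcripts, and, both chosen after seeing the data, unrounded half-lives and ranks centred by GC3; the lowest adjusted p of these was 0.0502, with the 6 h level alone. With plain mid-ranks and no shared tie at the top 56 ranked higher and 31 lower, and with the 4 h level alone 65 and 44. Leaving out 1 replicate gave 0 to 196 higher and 0 to 476 lower, with calls appearing only where 1 OL replicate was left: 102 higher and 356 lower without OL replicate 1, and 196 and 476 without OL replicate 2. The lone OL replicate is then assumed to vary like the OPCs, and 332 of the 356 and 444 of the 476 had the same tied rank in all OPC replicates. The study's methods say that the OL replicates match OPC replicates but not which, so equal numbers were not taken as pairs, and deviations of same-numbered lists correlated at -0.0131 and -0.0887. With the replicate block 0 transcripts passed in either direction, with 320 higher and 324 lower at an unadjusted p under 0.05, and Olig1 came to -1.57.

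Among the described lists the median kept its sign in all 15 alternatives for 8 of the 17: replication, mitosis, repair, adhesion, Zfp, guidance, Tmem and solute carrier genes. With the 6 h level alone it was -0.616 for immediate early genes, -3.80 for the Wnt, Notch and TGF-beta list and -0.663 for clock genes. Ranked among all listed transcripts it was 0.02 for lineage factors and 0.65 for decay factors. With plain mid-ranks it was -0.148 for myelin genes, and -6.74 for adhesion, lysosome and autophagy, splicing and progenitor genes, which is the difference that plain mid-ranks give any transcript at 6 h in all lists, so that the sign there says nothing of stability. Splicing factors came to 0.0 without OL replicate 1. The myelin and progenitor medians turned when 1 replicate was left out. With plain mid-ranks, refitted half-lives, the ranks over 4 chase times or single chase times, medians were over all ranked members. Members tied in all 5 lists were thus included, and the set differed as well as the measure. Refitting without a ceiling gave smaller medians for guidance (2.36), solute carrier (2.77), Tmem (3.23) and myelin genes (3.83). Other medians that moved by over 1.5 times were 3.50 (guidance), -1.34 (lineage), -5.29 (decay) and 3.73 (clock) with plain mid-ranks. With the ranks over 4 chase times they were -11.7 (mitosis), 4.85 (Tmem), 2.99 (lysosome), 1.35 (myelin), -1.08 (progenitor) and 6.72 (clock). With the 6 h level they were 4.42 (Tmem), 3.93 (guidance), -6.47 (splicing), -6.56 (decay) and 4.60 (myelin), and with the 4 h level -10.5 (adhesion), 5.06 (Tmem), 2.30 (lysosome), 3.53 (myelin), -7.38 (progenitor) and 7.91 (clock). Refitting gave -2.67 (progenitor), -4.64 (decay) and 3.79 (clock), ranking among all listed transcripts -2.51 (Zfp), -1.14 (progenitor) and 5.61 (clock), and the 0 h minimum -1.54 (decay) and 3.94 (clock).

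Single transcripts turned in sign, and with the 6 h level alone these included Wdr4, Hey1, Exosc8 and Ppp1r16b, whose differences were 59.4, 38.8, -38.9 and 20.6. With the 6 h level alone Wdr4 came to -15.0, Cdc7 to -11.5, Hey1 to -3.59, Exosc8 to 12.1, Ppp1r16b to -0.234, Cspg4 to -7.68, Olig1 to -3.83, Olig2 to -16.7 and Tubb3 to -0.234. With the 4 h level Cdc7 came to -6.71, Ncoa2 to 0.30, Cspg4 to -4.05, Olig1 to -3.79, Olig2 to -6.58 and Sox10 to 1.02. With the ranks over 4 chase times Ppp1r16b came to -0.811, Pdgfra to 9.15, Cspg4 to -0.216, Olig1 to -0.853 and Olig2 to -1.31. With GC3 centring Cacng4 came to -1.49, Cspg4 to -2.96, Olig1 to -4.52 and Olig2 to -6.33. Ranked among all listed transcripts, Pdgfra came to 0.880, Gpr17 to 3.25 and Sox10 to 1.83. Refitting gave Gpr17 0.0462 and Olig1 -1.76, the 0 h minimum gave Gpr17 0.212, normal scores gave Gpr17 0.0139 and Sox10 0.0680, and unrounded half-lives gave Pdgfra 0.489. Leaving out 1 replicate gave ranges of -3.17 to 19.4 for Cacng4, -6.83 to 1.64 for Pdgfra, -15.2 to 26.3 for Cspg4, -2.09 to 3.03 for Gpr17, -12.7 to 16.8 for Olig1, -0.521 to 1.22 for Olig2 and -3.82 to 3.86 for Sox10. The cause was not tested.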
